A study of Homo sapiens with 9 samples.

Results

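The genes described are 10 that mark the epithelial or the mesenchymal state of a cell: the epithelial adhesion genes CDH1 and EPCAM, the mesenchymal genes CDH2, VIM and FN1, and the transcription factors SNAI1, SNAI2, TWIST1, ZEB1 and ZEB2. They were chosen by name, with earlier results of these data known, and make up 10 of the 58735 genes in the table, 19951 of them protein-coding. RNA-seq was performed on poly(A) RNA of KHM-5M, a human thyroid cancer cell line that carries mutations in BRAF and in the TERT promoter, as all groups here do. YK-4-279's intended targets are the ETS transcription factors, and cells were treated for 24 h with DMSO, the solvent control, or with this small molecule at 0.3 µM or 1 µM. Each of the 3 groups had 3 samples. The labels number the replicates but do not say whether they were separate cultures, so that the p-values below measure the spread between these samples, which may be technical. The written methods speak of 2 biological replicates per condition where the labels list 3 samples, a difference that could not be resolved here.

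Total counts per sample lay between 16903251 and 18238884, and 3 counts, used here as the limit of what a sample can show, corresponded to 0.164 to 0.177 CPM, the count scaled to the library size. Of 8 thyroid follicular markers, PAX8 (2742 to 3660 counts per sample) and HHEX (231 to 320 counts) were present, whereas thyroglobulin (TG), TSHR and SLC5A5 had at most 5 counts in any sample, so these genes of the differentiated thyrocyte were absent or nearly so. The leukocyte marker PTPRC had at most 1 count. Markers of other cell types were mixed: among endothelial markers PECAM1 had at most 6 counts but TIE1 had 2041 to 2558, and VWF and KDR had 36 to 77 and 27 to 47. Among fibroblast markers COL1A2 and DCN had at most 10 and 8 counts, but COL1A1 had 5579 to 9593, PDGFRB 595 to 1012 and LUM 142 to 238 counts.

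Epithelial cells hold each other by E-cadherin, the product of CDH1, at adherens junctions, while mesenchymal cells carry N-cadherin (CDH2), the intermediate filament protein vimentin (VIM) and fibronectin (FN1) in their matrix. The SNAI, TWIST and ZEB proteins are the transcription factors best known for the passage from the first state to the second, and the SNAI and ZEB proteins bind E-box sequences in the CDH1 promoter and repress it. Undifferentiated thyroid cancers are known for the loss of E-cadherin and for mesenchymal gene expression.

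KHM-5M cells expressed the mesenchymal genes of this panel at high levels and almost no CDH1 under every treatment. Levels of different genes were compared as FPKM, which are divided by gene length. In DMSO, VIM reached 454 ± 16.3 FPKM (SD, n = 3) and ranked 50 among the 19951 protein-coding genes, and FN1 reached 209.5 ± 10.98 FPKM and ranked 124. CDH2 followed at 23.71 ± 0.869 FPKM. TWIST1, at 20.01 ± 2.393 FPKM, was the highest of the 5 transcription factors, and its range of 17.9 to 22.61 FPKM lay just below that of CDH2, which began at 22.76 FPKM. ZEB1 stood at 10.17 ± 1.117 FPKM.

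The lower levels began with SNAI1 at 5.46 ± 0.982 FPKM and SNAI2 at 4.66 ± 0.475 FPKM, neighbours whose DMSO samples overlapped. ZEB2 had 2.345 ± 0.0537 FPKM and EPCAM, a cell adhesion protein of epithelia, 2.094 ± 0.0528 FPKM, close in value but without overlap in DMSO. CDH1 came last, with 0.0275 ± 0.0244 FPKM and a rank of 14598. The mean CDH2 level was 863 times the mean CDH1 level in DMSO, a ratio that rests on the few CDH1 counts given below. The order of the 10 genes was the same with 1 µM of the inhibitor, and with 0.3 µM it differed only in that EPCAM (2.54 FPKM) stood above ZEB2 (2.35 FPKM). The gene length in the table, 25058 bases for ZEB2 against 2519 bases for EPCAM, enters each of these values, and how far the reads of ZEB2 covered that length was not tested.

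**Figure D1:**
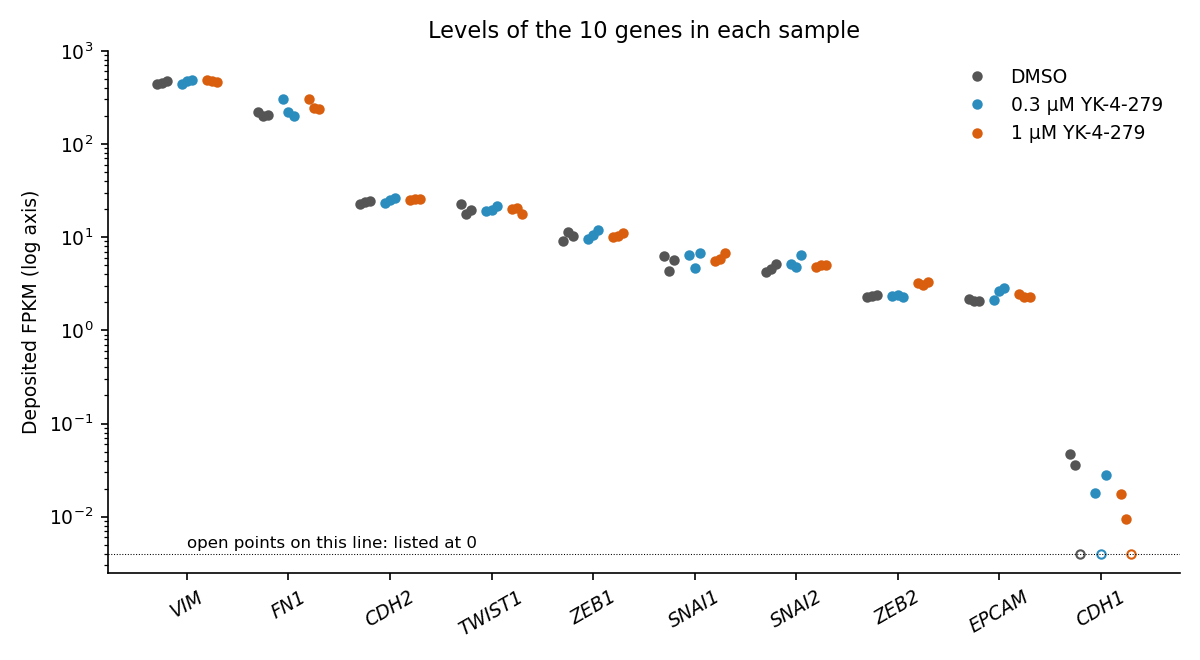
Deposited FPKM of the 10 genes in each of the 9 samples on a log axis, ordered by the DMSO mean, with the samples of DMSO and of the inhibitor at 0.3 µM and 1 µM side by side and open points for samples listed at 0. VIM and FN1 lie above 200 FPKM, CDH1 lies below 0.05 FPKM in every sample, and the range across the 10 genes is far wider than that between doses. Neighbouring genes can differ by less: ZEB2 and EPCAM have means of 2.345 and 2.094 FPKM in DMSO, and ZEB2 has 3.199 FPKM at 1 µM.

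CDH1 was at the limit of detection. It had 5, 4 and 0 counts in DMSO replicates 1, 2 and 3, then 2, 0 and 3 counts with 0.3 µM, and 2, 1 and 0 counts with 1 µM of the inhibitor. Summed over the samples of a group, this was 9 counts or 0.174 CPM in DMSO (exact 95% Poisson interval 0.0796 to 0.33), 5 counts or 0.0939 CPM with 0.3 µM (0.0305 to 0.219), and 3 counts or 0.0569 CPM with 1 µM (0.0117 to 0.166), where the intervals cover counting error only. The groups overlapped, and CDH1 did not pass the filter on low counts, so 9 of the 10 genes were tested. A fall of CDH1 was not detectable at this depth, and the upper bounds of 0.219 and 0.166 CPM limit the level it can have reached at 0.3 µM and 1 µM.

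EPCAM was measurable but low. Here and below, values of 1 gene across samples are CPM scaled by TMM, a correction for RNA composition. EPCAM had 5.46, 5.17 and 5.23 CPM in DMSO, 5.36, 6.71 and 7.25 CPM with 0.3 µM, and 6.20, 5.75 and 5.80 CPM with 1 µM. All 3 samples at 1 µM lay above all 3 DMSO samples, yet the difference did not pass the test (log2 fold change 0.14, 95% interval -0.181 to 0.454, adjusted p = 0.569). At 0.3 µM, where 1 sample lay within the DMSO range, it was 0.28 (interval -0.0752 to 0.625, adjusted p = 0.995).

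Among the mesenchymal genes, FN1 rose with 1 µM of the inhibitor, and CDH2 and VIM did not pass the test. FN1, which encodes the matrix glycoprotein fibronectin, had 3870, 3483 and 3560 CPM in DMSO replicates 1, 2 and 3, then 5259, 3833 and 3515 CPM with 0.3 µM, and 5274, 4224 and 4155 CPM with 1 µM. All 3 samples at 1 µM lay above DMSO, and at each dose replicate 1 was far above the other 2 replicates. FN1 was 1.23-fold higher at 1 µM than in DMSO (log2 fold change 0.30, SE 0.0786, 95% interval 0.128 to 0.465, adjusted p = 0.0183).

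The size of the FN1 difference and its call varied with the samples used. The ratio of replicate 1 to the mean of the other 2 replicates was 1.1 in DMSO, 1.43 at 0.3 µM and 1.26 at 1 µM, and of 11087 genes of at least 5 CPM, 21.4%, 0.595% and 2.22% were as high in replicate 1 of these groups. Without replicate 1 of the 1 µM group the log2 fold change was 0.19 with adjusted p = 0.0535, without replicate 3 of DMSO it was 0.28 with adjusted p = 0.0788, and with all 9 samples in 1 fit it was 0.30 with adjusted p = 0.0615. With replicate 1 left out of both groups, a choice made after these values were seen, it was 0.23 with adjusted p = 0.0279. What set replicate 1 apart was not tested.

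At 0.3 µM, FN1 was not called in the fit that did not pair samples by replicate number (log2 fold change 0.20, 95% interval -0.0165 to 0.418, adjusted p = 0.995). It was not called with such a pairing, a replicate block, either (log2 fold change 0.18, SE 0.064, adjusted p = 0.779). In the fit without the block and without replicate 1 of that dose, the log2 fold change was 0.00909. Between the doses, the log2 fold change of FN1 at 1 µM against 0.3 µM was 0.11 (interval -0.123 to 0.34, adjusted p = 0.569). That comparison turned on single samples: it was 0.30 with adjusted p = 0.0285 without replicate 1 of 0.3 µM, -0.0107 without replicate 3 of 0.3 µM, and -0.0117 without replicate 1 of 1 µM.

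CDH2, the N-cadherin gene, had 113.4, 118.2 and 121.5 CPM in DMSO, 115.3, 125.6 and 129.9 CPM with 0.3 µM, and 125.2, 127 and 129.3 CPM with 1 µM. The 1 µM samples lay just above the DMSO samples, with a log2 fold change of 0.086 (95% interval -0.0348 to 0.206, adjusted p = 0.32) that did not pass the test. VIM had 2288, 2313 and 2443 CPM in DMSO, 2304, 2443 and 2494 CPM with 0.3 µM, and 2538, 2438 and 2430 CPM with 1 µM. The VIM groups overlapped, and the interval of its log2 fold change at 1 µM, -0.0601 to 0.153 around 0.047 (adjusted p = 0.563), leaves room for a rise of at most 1.11-fold and a fall to 0.959 of the DMSO level.

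**Figure D2:**
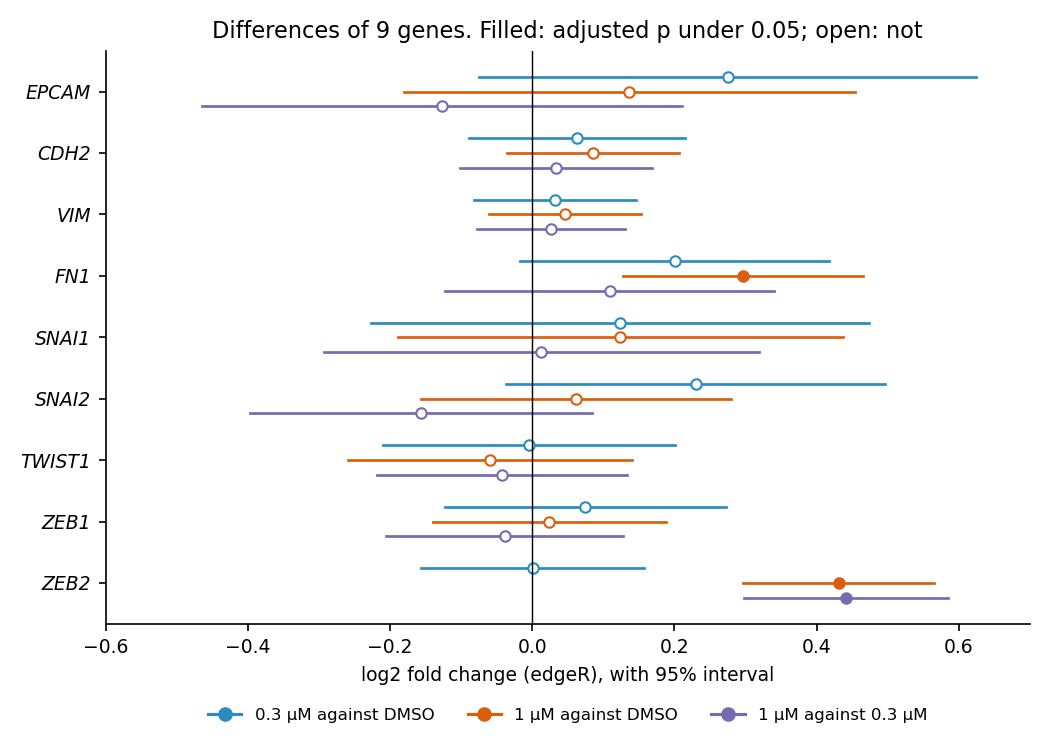
The log2 fold changes of the 9 tested genes, with 95% intervals, for 0.3 µM against DMSO, 1 µM against DMSO and 1 µM against 0.3 µM. Filled points mark an adjusted p under 0.05: ZEB2 at 1 µM against both other groups (0.43 and 0.44) and FN1 at 1 µM against DMSO (0.30).

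Of the 5 transcription factors, ZEB2 rose with 1 µM of the inhibitor and the other 4 were not called at any dose. ZEB2, a zinc finger and homeodomain repressor that binds pairs of E-boxes, had 57.72, 58.84 and 60.2 CPM in DMSO, 59.12, 60.65 and 58.11 CPM with 0.3 µM, and 81.66, 76.56 and 84.44 CPM with 1 µM. The DMSO and 0.3 µM samples shared 1 narrow range, and the 3 samples at 1 µM all stood above both. In this bulk RNA, more RNA per cell and a larger share of cells that express the gene cannot be told apart.

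ZEB2 was 1.35-fold higher at 1 µM than in DMSO (95% interval 1.23 to 1.48; log2 fold change 0.43, SE 0.0627, adjusted p = 0.000443) and 1.36-fold higher at 1 µM than at 0.3 µM (log2 fold change 0.44, SE 0.0682, adjusted p = 0.000565). At 0.3 µM against DMSO its log2 fold change was 0.00133, with an interval of -0.156 to 0.158 and adjusted p = 0.999. The call at 1 µM against DMSO held in 12 of 12 other fits, among them those without each sample in turn, with log2 fold changes of 0.40 to 0.47. The 3 comparisons share samples with each other, so that the same DMSO or 1 µM values enter more than 1 of them.

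ZEB1, the paralogue of ZEB2, had 78.53 to 97.14 CPM in DMSO, 83.88 to 104.9 CPM with 0.3 µM and 87.52 to 96.34 CPM with 1 µM, with all groups overlapping. Its log2 fold change at 1 µM was 0.024 (95% interval -0.14 to 0.188, adjusted p = 0.865). The intervals of ZEB1 and ZEB2 at 1 µM do not overlap, though the difference between the genes was not tested.

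The basic helix-loop-helix factor TWIST1 had 36.33 to 46.27 CPM in DMSO, 39.37 to 43.72 CPM with 0.3 µM and 36.42 to 42.03 CPM with 1 µM, and was the one tested gene with a log2 fold change below 0 at 1 µM (-0.0589, interval -0.259 to 0.141, adjusted p = 0.713). Its sign turned when single samples were left out. SNAI1, which encodes the zinc finger repressor Snail, had 7.38 to 10.69 CPM in DMSO, 7.98 to 11.51 CPM with 0.3 µM and 9.49 to 11.42 CPM with 1 µM (log2 fold change at 1 µM 0.12, interval -0.189 to 0.437, adjusted p = 0.605).

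SNAI2, which encodes Slug, had 14.41 to 17.58 CPM in DMSO, 16.41 to 21.98 CPM with 0.3 µM and 16.18 to 17.4 CPM with 1 µM. Its log2 fold change was 0.23 at 0.3 µM (interval -0.0369 to 0.497, adjusted p = 0.995) and 0.062 at 1 µM (interval -0.156 to 0.28, adjusted p = 0.724). The wide intervals of SNAI1, SNAI2 and EPCAM go with their low counts, which were at most 200, 382 and 126 per sample.

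**Figure D3:**
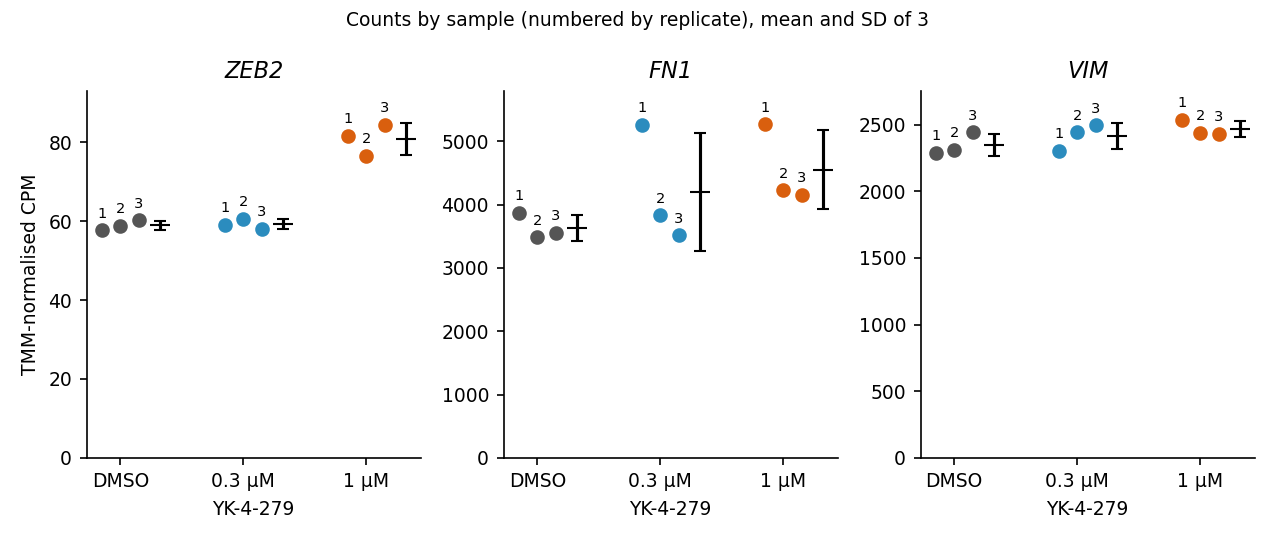
TMM-normalised CPM of ZEB2, FN1 and VIM in each sample, numbered by replicate, with the mean and SD of 3 samples beside each group, on axes that start at 0. The 1 µM samples of ZEB2 (76.56 to 84.44 CPM) stand apart from all others, FN1 is spread by replicate 1 at both doses (5259 and 5274 CPM), and the VIM groups overlap.

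Over the tested genes of the panel, 2 of 9 were called at 1 µM against DMSO, FN1 and ZEB2, both higher, where 2752 of 15617 genes in the whole table, or 17.6%, were called, 7.67% higher and 9.95% lower. Groups did not overlap for 4 of 9 (FN1, ZEB2, CDH2 and EPCAM, all higher at 1 µM), where this held for 37.4% of all genes tested. With so few genes, both shares are near those of the whole table. The median log2 fold change of the 9 genes was 0.0857, against -0.00829 over all genes tested, and 8 of 9 lay above 0. None passed with a change of more than 1.5-fold.

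At 0.3 µM against DMSO, edgeR called 0 of the 9 genes, and 0 of 15762 genes tested (0% of the table), while DESeq2 called 0 of the 9 and 1 gene in all. At an unadjusted p under 0.05 there were 0 of the 9 genes and 3.77% of all genes without a replicate block. A block was also fitted because the replicate numbers were taken to pair these samples, a pairing that the labels do not state. With it, the unadjusted p was under 0.05 for 2 of the 9 genes, FN1 (log2 fold change 0.18) and SNAI2 (log2 fold change 0.23). Neither passed after adjustment over all genes in edgeR (adjusted p = 0.779 for both). The share of all genes under that limit with the block is not given here, so the count cannot be set against the whole table. SNAI2, SNAI1, CDH2 and VIM were higher at 0.3 µM in all 3 pairs, and FN1, EPCAM, ZEB1, ZEB2 and TWIST1 in 2 of 3. The share of all genes that were higher in all 3 pairs is not given here, so nothing is read from this. Without the block, groups did not overlap for 0 of 9 and for 8.47% of all genes. At 1 µM against 0.3 µM, ZEB2 was the one gene of the panel that was called, where 12.6% of 15583 genes were, and also the one whose groups did not overlap, where 31.9% of all genes did not.

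Windows around a RefSeq transcription start are shown for each of the 2 called genes. They are given because the inhibitor is directed at ETS factors, whose shared core sequence is GGAA. They run from 250 bases before to 50 bases after the start, 5′ to 3′ on the strand of the gene, and come from RefSeq (GRCh38.p14): chr2:215436019-215436318, minus strand, for FN1, and chr2:144520070-144520369, minus strand, for ZEB2. Capitals mark GGAA on either strand, so that TTCC is GGAA on the other strand.
FN1: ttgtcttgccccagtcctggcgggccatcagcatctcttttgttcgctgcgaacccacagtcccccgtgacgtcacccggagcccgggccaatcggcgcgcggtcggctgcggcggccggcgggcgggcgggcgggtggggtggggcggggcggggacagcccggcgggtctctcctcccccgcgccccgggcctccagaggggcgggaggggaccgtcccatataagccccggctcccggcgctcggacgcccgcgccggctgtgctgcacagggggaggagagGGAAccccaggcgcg
ZEB2: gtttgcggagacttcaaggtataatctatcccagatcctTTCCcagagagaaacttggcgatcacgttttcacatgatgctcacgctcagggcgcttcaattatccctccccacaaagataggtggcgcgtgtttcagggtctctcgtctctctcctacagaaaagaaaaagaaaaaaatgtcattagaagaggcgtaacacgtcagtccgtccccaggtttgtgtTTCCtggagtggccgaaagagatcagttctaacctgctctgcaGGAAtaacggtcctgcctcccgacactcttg

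The FN1 window held these letters 1 time and the ZEB2 window 3 times. Of 35116 promoter windows of this length, 95.5% held GGAA on either strand, with a median of 3 matches and at most 1 match in 16.2% of them. The E-box CACCTG, searched on both strands, was in neither window and in 20.6% of all windows. RefSeq windows were matched for 5 of the 10 genes (CDH2, VIM, FN1, ZEB1 and ZEB2), 12 windows in all, and the E-box was found in 2 of them, both of ZEB1. Windows on chromosome 8, where SNAI2 lies, were left out of this match, so SNAI2 could not be among the matched genes. A match in these letters is a description of the window and not a binding site.

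In the table's annotation of GRCh38, FN1 (ENSG00000115414) spans 215360440 to 215436172 and ZEB2 (ENSG00000169554) spans 144364364 to 144524583, both on the minus strand of chromosome 2. The FN1 window above covers the upstream end of the FN1 span. The ZEB2 window lies inside the ZEB2 span and not at its upstream end, so it is not the 5′ end of the gene as counted. No gene overlapped FN1. ZEB2 was overlapped by ZEB2-AS1 on the opposite strand, with 0 to 1 count per sample, and by AC009951.1 on the same strand, with 0 to 6 counts. The antisense genes VIM-AS1 (54 to 84 counts) and ZEB1-AS1 (135 to 190 counts) overlap VIM and ZEB1. Whether the counting used strand is not given in the sources used here, so reads of these pairs may not have been told apart, and neither antisense gene was called at either dose.

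The genes most like FN1 and ZEB2 over the 9 samples were named as a description, from 11087 genes of at least 5 CPM. The highest Pearson correlations of log2 CPM with FN1 were those of MMP2, a matrix metalloproteinase (r = 0.975), AMPD3, an AMP deaminase (r = 0.953), and SUSD6 (r = 0.943). MMP2 had 866 counts in replicate 1 at 0.3 µM and 959 in replicate 1 at 1 µM, each the highest of its group, as for FN1. The highest with ZEB2 were those of TM9SF2 (r = 0.99), TRMT10C, a subunit of mitochondrial RNase P (r = 0.99), and KCTD20 (r = 0.987), each with fewer counts in all 6 samples of DMSO and 0.3 µM than in the 3 samples of 1 µM. The samples share a dose structure, and no more is read from these values.

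Other genes of the 2 states were described from 9 lists that hold none of the 10 genes. At 1 µM against DMSO, 26 of 166 tested genes rose and 12 fell, or 22.9%, beside 17.6% of all genes, and at 0.3 µM 0 were called. The lists were written by hand with earlier results of these data known, so nothing is read from the higher share. More genes rose than fell among junction genes and in the TGF-β and BMP pathway. More fell than rose among mesenchymal matrix and cytoskeleton genes, whereas 4 rose and 0 fell among other transcriptional regulators of the mesenchymal transition. Of all genes tested, 7.67% rose and 9.95% fell. The number of calls in a list was small in each case, and most genes of each list were not called. No shift between the 2 states is read from these counts. Without replicate 3 of DMSO 22 of the list genes were called, and with replicate 1 left out of both groups 24. The share of all genes called in those fits is not given here, so the lower counts are not read as a trait of the lists.

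Of 39 epithelial junction and polarity genes, 22 had at least 1 FPKM in DMSO and 7 lay under 0.1 FPKM. Among the 33 that were tested, 6 rose, 2 fell and 25 were not called, with a median log2 fold change of 0.12. The tight junction gene CLDN4 rose from 386 to 436 counts per sample in DMSO to 553 to 650 counts at 1 µM (log2 fold change 0.54, adjusted p = 0.00234). SPINT1, a protease inhibitor of epithelia, rose by 0.65 from only 43 to 56 counts (adjusted p = 0.0417).

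Among the junction genes that fell was the desmosomal PKP2 (log2 fold change -0.27, adjusted p = 0.0417). CLDN4 was called in 12 of 12 other fits, whereas SPINT1 and PKP2 were called in 4 of 12. Of 12 catenin and nectin genes, which link cadherins to the cytoskeleton or join adherens junctions, 11 were tested. CTNNB1, which encodes β-catenin, rose by 0.21 (adjusted p = 0.0126), PKP4 rose by 0.19 (adjusted p = 0.0324), and ARVCF fell (-0.38, adjusted p = 0.018). These were called in 11, 5 and 7 of 12 other fits. None of the list was called with replicate 1 left out of both groups, a fit whose share over all genes is not given here.

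Keratin levels ranged widely beside VIM. KRT8 had 191 FPKM and KRT18 132 FPKM in DMSO, genes singled out after their values were seen, KRT19 had 1.93 FPKM, and 3 of 10 keratins lay under 0.1 FPKM, with KRT5 and KRT14 listed at 0. The mean VIM level was 2.38 times that of KRT8. Neither KRT8 nor KRT18 was called at 1 µM (log2 fold changes 0.015 and -0.0181, adjusted p = 0.877 and 0.848). Of 7 tested keratins, KRT80 rose (0.27, adjusted p = 0.0112) and KRT81 fell (-0.35, adjusted p = 0.0146).

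Of 16 regulators of the epithelial state, 8 lay under 0.1 FPKM in DMSO, among them GRHL2, listed at 0 in all samples, and ESRP1, OVOL1 and OVOL2. KLF5 (6.03 FPKM), KLF4 (2.41 FPKM), ELF3 (0.895 FPKM) and ESRP2 (0.52 FPKM) were expressed, and these levels were picked after they were seen. Of 7 that were tested, KLF4 rose from 134 to 176 counts in DMSO to 183 to 232 counts at 1 µM (log2 fold change 0.42, adjusted p = 0.0394), a call that held in 6 of 12 other fits.

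Of 42 genes of the mesenchymal matrix, cytoskeleton and adhesion, 33 had at least 1 FPKM in DMSO and 5 lay under 0.1 FPKM. Among the 37 that were tested, 1 rose, 6 fell and 30 were not called, with a median log2 fold change of -0.059. VCAN, a matrix proteoglycan, fell from 4485 to 5325 counts in DMSO to 3559 to 3690 counts at 1 µM (log2 fold change -0.42, adjusted p = 0.000416). TPM1, a tropomyosin, fell from 5149 to 5993 counts to 4149 to 4804 counts (-0.34, adjusted p = 0.0015). NT5E, the ecto-nucleotidase CD73, rose (0.27, adjusted p = 0.00344).

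COL1A1 fell (log2 fold change -0.41, adjusted p = 0.0132), although its groups overlapped, and was called in 9 of 12 other fits. It is also 1 of 7 fibroblast markers, whose summed level was 442 to 620 CPM in DMSO, 390 to 569 CPM at 0.3 µM and 388 to 444 CPM at 1 µM. Of those markers PDGFRB fell (-0.48, adjusted p = 0.000773), PDGFRA rose from 3 to 11 counts to 24 to 29 counts (1.62, adjusted p = 0.0159), and COL1A2, COL3A1 and DCN had at most 10 counts in any sample. FN1 thus rose at the dose at which VCAN and COL1A1 fell.

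Of 18 other transcriptional regulators tied to the mesenchymal transition, 4 rose and 0 fell. SOX9 rose by 0.39 (adjusted p = 0.00367), ID3 by 0.38 (adjusted p = 0.0087) and ID1 by 0.37 (adjusted p = 0.00801) on the log2 scale. The ID genes encode inhibitors of basic helix-loop-helix factors and are textbook targets of BMP signalling.

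The TGF-β and BMP pathway, a known inducer of SNAI and ZEB genes and of FN1, had 9 genes that rose and 2 that fell among 33 tested, with a median log2 fold change of 0.16. The receptor TGFBR2 rose from 2023 to 2079 counts in DMSO to 2729 to 3272 counts at 1 µM (log2 fold change 0.49, adjusted p = 0.000159). The ligand TGFB1 rose (0.32, adjusted p = 0.0277, called in 8 of 12 other fits) and the ligand TGFB2 fell from 1898 to 2091 counts to 1240 to 1373 counts (-0.63, adjusted p = 1.71e-05).

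TGFBI, a target of the pathway, fell (-0.21, adjusted p = 0.017, called in 7 of 12 other fits). Without replicate 3 of DMSO 5 genes of this pathway were called, and the share of all genes called in that fit is not given here. Of 18 genes for cofactors and turnover of the SNAI and ZEB proteins, PRMT5, an arginine methyltransferase, rose by 0.35 (adjusted p = 0.00408) and CTBP2, a corepressor bound by ZEB proteins, by 0.18 (adjusted p = 0.0448, called in 5 of 12 other fits), and 16 were not called.

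**Figure D4:**
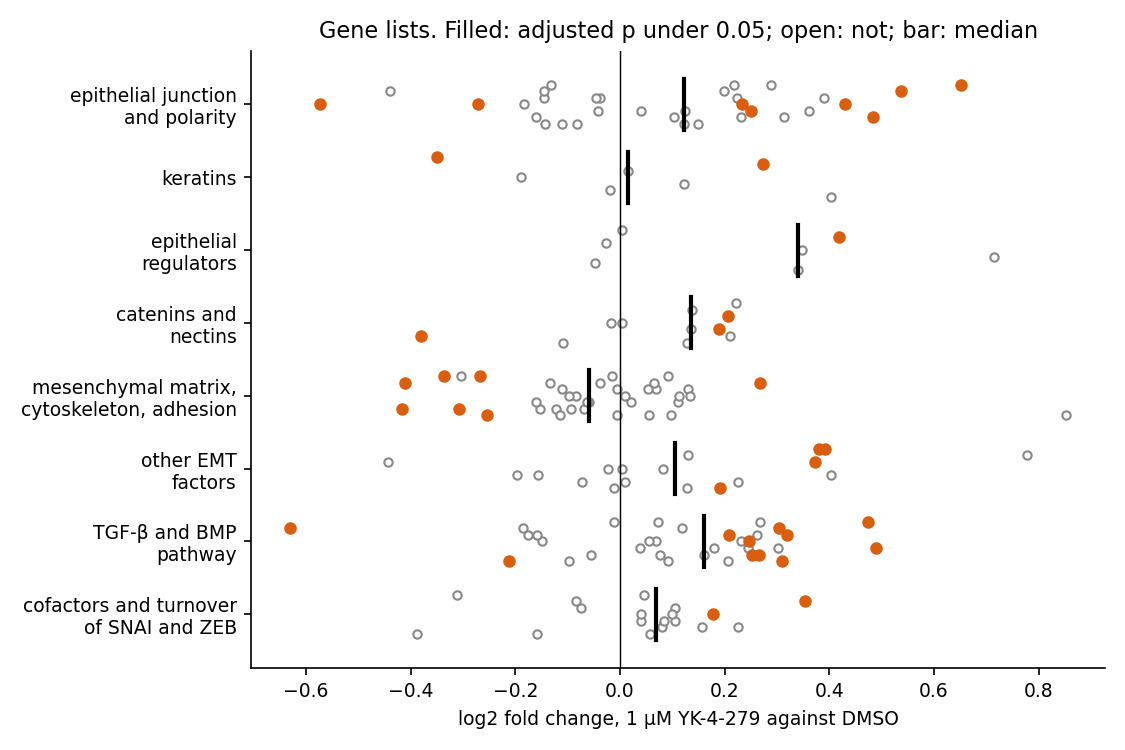
Log2 fold changes at 1 µM against DMSO of the tested genes of 8 lists, 1 point per gene with scatter in height for legibility, filled where the adjusted p was under 0.05, with a bar at the median of each list. The medians run from -0.059 for mesenchymal matrix genes to 0.34 for the 7 epithelial regulators, and 38 of 166 genes over all lists were called.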

How the data were processed

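Counts per gene were deposited as whole numbers without normalization. Reads were trimmed of adaptors, filtered for quality and aligned to GRCh38 with Hisat2 by the authors. The methods name HTseq and a stranded library kit, whereas the submitters' processing notes name HISAT2 2.0.5, featureCounts 1.5.0-p3 and DESeq2 1.20.0. The authors also deposited FPKM per gene and sample, used here for levels between genes. The 10 columns of the authors' own fold changes, p-values and adjusted p-values were not used.

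Counts were tested in edgeR 4.0.16 (R 4.3.3) with filterByExpr (minimum count 10), TMM, glmQLFit and glmQLFTest on the 2 groups compared, and Benjamini-Hochberg adjustment over all genes tested. A gene was called at an adjusted p under 0.05. Unless another fit is named, the fold changes, intervals and p-values in the text come from this fit, which holds no replicate block. The code was tested on simulated data. Alternatives were DESeq2 1.42.0, RLE size factors, a minimum count of 1, all 9 samples in 1 fit, a replicate block, a 1.5-fold cutoff and each sample left out. An exact permutation test of 3 against 3 samples cannot go below p = 0.1 and was not used. Python 3.11.15 with pandas 2.3.3 and matplotlib 3.10.9 was used for summaries and plots.

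The 10 genes and the lists were chosen with earlier results of these data known. In each list the text names up to 3 genes that rose and 3 that fell, those with the largest log2 fold change among the genes called at 1 µM with at least 1 CPM. Some genes that this rule would name are not reported here. For each called gene of the panel it names the 3 genes most correlated with it.

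Deviations from the group means were correlated between samples over genes with a mean of at least 200 counts. For 0.3 µM and DMSO, the correlations were 0.104 to 0.328 for the same replicate number and -0.282 to -0.00133 for different numbers. These numbers were taken to pair the samples on that ground alone, since the labels state no pairing. For 1 µM and DMSO, the same numbers gave -0.203 to 0.103 and different numbers -0.101 to 0.245. For 1 µM and 0.3 µM, the same numbers gave -0.11 to -0.024 and different numbers -0.0411 to 0.138. In these comparisons the numbers were not taken as pairs, yet samples of different numbers reached 0.245, so the pairing is uncertain.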

Additional observations from a re-analysis of the deposited data

How the results depend on the processing

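Of 324 log2 fold changes of the 9 genes under other settings, 290 kept their sign and their side of the threshold, 30 changed sign, 3 lost a call and 1 gained one. The number called at 1 µM against DMSO (2) was 1 with all 9 samples in 1 fit, 0 with a 1.5-fold cutoff and 1 to 2 with single samples left out. At 1 µM against 0.3 µM (1) it was 0 with the cutoff and 1 to 2 with single samples left out. With a replicate block, 0, 2 and 1 of the 9 genes were called at 0.3 µM against DMSO, 1 µM against DMSO and 1 µM against 0.3 µM, and 31 list genes at 1 µM. The block changed no call of the 9 genes at the adjusted threshold. List genes called (38) numbered 66 at an unadjusted p under 0.05, 2 with the 1.5-fold cutoff, 24 with replicate 1 left out of both groups (a setting added after the data were seen) and 22 to 44 with single samples left out. The share of all genes called under these other settings is not given here, so the counts cannot be set against the whole table. The sign of TWIST1 at 0.3 µM turned with DESeq2 (0.00119), a minimum count of 1 (0.00215) and both groups without replicate 1 (0.122). That last setting also turned ZEB2 at 0.3 µM (-0.0109), TWIST1 (0.0216) and ZEB1 (-0.0197) at 1 µM against DMSO, and CDH2 (-0.00463) and VIM (-0.0288) at 1 µM against 0.3 µM. With single samples left out, the log2 fold changes that turned ranged at 0.3 µM against DMSO from -0.0119 to 0.27 for SNAI1, -0.0764 to 0.0944 for TWIST1, -0.0161 to 0.157 for ZEB1 and -0.0143 to 0.0172 for ZEB2. At 1 µM against DMSO they ranged from -0.00752 to 0.245 for SNAI1, -0.127 to 0.0433 for TWIST1 and -0.0504 to 0.11 for ZEB1. At 1 µM against 0.3 µM they ranged from -0.0135 to 0.0652 for CDH2, -0.00615 to 0.0444 for VIM, -0.0117 to 0.302 for FN1, -0.131 to 0.11 for SNAI1, -0.0805 to 0.0207 for TWIST1 and -0.11 to 0.047 for ZEB1. The cause was not tested. These reversals were of log2 fold changes that were not called. Depth limits CDH1, at 0 to 5 counts per sample, and widens the intervals of EPCAM, SNAI1 and SNAI2.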

Other observations

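The miR-200 family, whose mature microRNAs are known to bind ZEB1 and ZEB2 messages, was looked up after the values above were seen. Its precursors can be read here only as far as they are polyadenylated, and mature microRNAs are not measured. MIR200CHG, the host gene of miR-200c and miR-141, was at 0 counts in all 9 samples, which allows at most 0.164 to 0.177 CPM per sample. MIR200A and MIR200B had 0 to 1 count per sample, and MIR429 had 0 to 7 counts. The mature sequences of 4 members are shown because they form the 2 seed groups of the family. They are from RefSeq (GRCh38.p14), 5′ to 3′, with bases 2 to 8, the seed, in capitals.
miR-200b-3p: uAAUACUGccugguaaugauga
miR-200c-3p: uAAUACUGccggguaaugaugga
miR-200a-3p: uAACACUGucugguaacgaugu
miR-141-3p: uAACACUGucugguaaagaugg

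CD14, the one leukocyte marker above 5 counts, rose from a range of 8 to 21 counts in DMSO to one of 30 to 37 at 1 µM (log2 fold change 1.07, adjusted p = 0.0484, edgeR), while PTPRC and CD3E had at most 1 count. The summed level of the 5 leukocyte markers was 0.495 to 1.45 CPM in DMSO, 0.518 to 1.22 CPM at 0.3 µM and 1.86 to 2.3 CPM at 1 µM.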
